A study of Mus musculus with 2 samples.

Results

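The regions described here are twin peaks: Flag-Hes5 peaks whose centre lay at most 1000 bp from the centre of another peak. They were taken from the authors' deposited peak list for cells making Flag-tagged Hes5. The members were chosen by peak position alone, a measured value of this same list, on chromosomes 1 to 19, and left out 24 crowded peaks on chromosome 9 below 3.1 Mb. Of 6505 listed peaks, 6427 were considered and 945 were twins, which is 14.7% of those considered (95% Wilson interval 13.9% to 15.6%). They formed 450 groups, of which 407 were pairs, 41 were groups of 3 and 2 were groups of 4. The comparison set was 4977 isolated peaks, with no other centre within 10 kb. A further 505 peaks had their nearest neighbour between these limits.

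The study, by chromatin immunoprecipitation and sequencing (ChIP-seq) with an anti-Flag antibody, had 2 libraries, both from mesodermal cells of the AinV/Bry-GFP mouse embryonic stem cell line. In this line green fluorescent protein marks the Brachyury gene, an early mesoderm gene, and positive cells were sorted from embryoid bodies on day 3.75 of differentiation. They were then cultured for 48 h with doxycycline, giving Flag-Hes5, or without it, as the labelled negative control. The promoter that drives Flag-Hes5 is not named in the labels, and the tagged protein was made by induction, so the peaks do not describe the cell's own Hes5. The only peak list analysed here is that of the library with doxycycline. Every value below comes from 1 library with no replicate, the read depth is unknown, and Flag-Hes5 signal cannot be told from background in the list.

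Hes5 is a basic helix-loop-helix repressor and a target of Notch signalling, the pathway by which neighbouring cells steer each other's fate. Proteins of the Hes family bind short DNA motifs as dimers and recruit Groucho-type corepressors, and regulatory DNA often carries several such motifs close together. In ChIP-seq each bound site yields a mound of reads about as broad as the DNA fragments, so neighbouring sites give separate peaks only where the mounds can be resolved. A list of twin peaks thus holds places where a caller reported separate regions side by side. Genes and motifs under the twins were not analysed here, and all positions are on mm9, the build named in the submitters' processing notes.

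The spacing of twins is bounded by the rule at 1000 bp. In the 407 pairs the median spacing between centres was 566 bp, with quartiles of 460 and 718 bp (95% interval of the median 542.5 to 592.5 bp). The closest centres were 287 bp apart. Spacings over 400 and up to 600 bp made up 45.7% of pairs (186 of 407). Since no peaks overlapped, the spacing was bounded below by the peaks' own widths, whose average within a pair had a median of 428.5 bp.

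Among all 495 neighbouring steps within the limit, those inside larger groups included, the commonest class was 400 to 500 bp, with 117 steps. The number fell to 26 steps between 900 and 1000 bp. It did not stop at the limit. Between 1000 and 1500 bp there were 13.6 steps per 100 bp, and between 1500 and 2000 bp there were 4.4. From 2 to 5 kb the rate was 2.1 to 3.7 steps per 100 bp. The limit of 1000 bp thus lies on the falling flank of the distances.

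**Figure D1:**
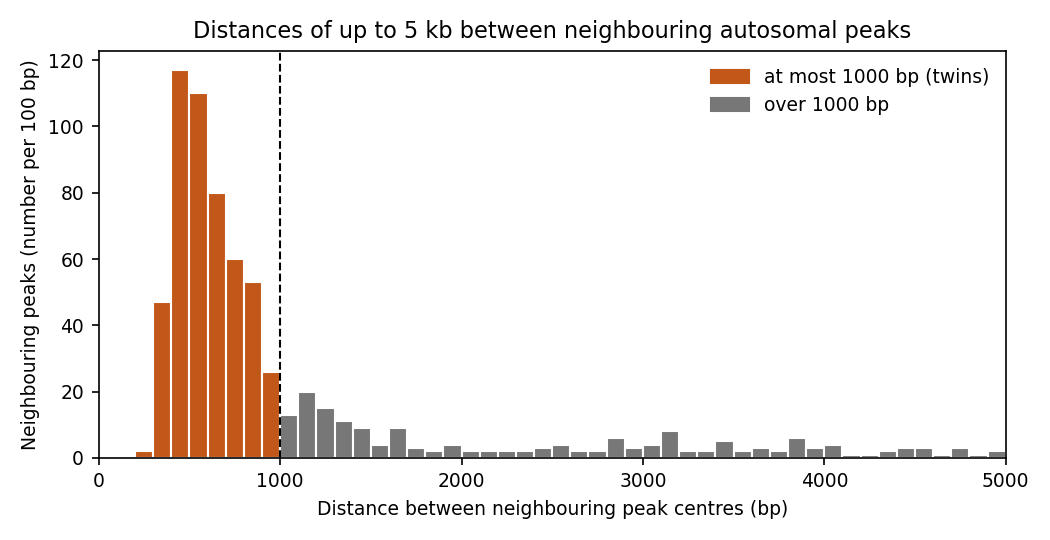
Number of neighbouring autosomal peaks (vertical axis, per 100 bp of distance) against the distance between their centres in bp (horizontal axis, up to 5 kb). Orange bars are steps within the twin limit of 1000 bp, marked by the dashed line, and grey bars are wider steps. The bars rise to 117 steps at 400 to 500 bp and have fallen to 26 by 900 to 1000 bp.

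The pairs nearest to the limit on either side were chosen by their spacing, and their values are given with no comparison. The score is the authors' own value for each peak, higher for a stronger peak, on a scale that the labels do not state. Just inside, a pair on chromosome 18 with centres 995 bp apart scored 380 and 551. A pair on chromosome 2, with peaks from 133377648 to 133377894 and from 133378560 to 133378968, was spaced 993 bp and scored 257 and 165. A pair on chromosome 6, from 90412346 to 90413207 and from 90413604 to 90413927, was spaced 989 bp and scored 1410 and 174. Just outside, the peaks on chromosome 12 from 109240992 to 109241540 and from 109242077 to 109242461 were 1003 bp apart and scored 387 and 220. Those on chromosome 15 from 27953934 to 27954437 and from 27954690 to 27955723 were 1021 bp apart, with scores of 255 and 617. Those on chromosome 8 from 48758959 to 48759453 and from 48759981 to 48760483 were 1026 bp apart, with scores of 343 and 213, and the second of them is counted as a twin of a peak on its other side.

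The stretch between the facing edges of a pair was short, and the rule itself bounds it. The spacing of at most 1000 bp is the gap plus the average width of the partners, which had a median of 428.5 bp. The median edge gap was 107 bp, with quartiles of 47 and 207 bp (95% interval of the median 91 to 123 bp). The gap was at most 100 bp, the labelled length of a sequencing read, in 195 of 407 pairs (47.9%, 95% Wilson interval 43.1% to 52.8%). In 32 pairs it was at most 10 bp. It was smaller than the narrower partner in 355 pairs (87.2%). Only 59 pairs had a gap over 300 bp, and the largest was 665 bp.

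The smallest gap, 1 bp, was found in 2 pairs. In the first, on chromosome 6, the peak from 72848728 to 72849993 scored 1254 and that from 72849995 to 72850392 scored 414. The second lay on chromosome 1 from 39957324 to 39957851 and from 39957853 to 39958337, with scores of 299 and 356. Each of these pairs is unbroken in all but 1 base, and the former held partners differing 3.03-fold in score and the latter partners differing 1.19-fold. A gap of 2 bp separated peaks on chromosome 11 from 98010443 to 98010943 and from 98010946 to 98011347, which scored 303 and 887. The same gap separated peaks on chromosome 5 from 115460866 to 115461400 and from 115461403 to 115461815, which scored 363 and 232.

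Taken from the first to the last base, a pair spanned a median of 1014 bp, with quartiles of 836 and 1252 bp. This span holds the widths of both partners, with a median sum of 857 bp, and the gap. An isolated peak has a single width, with a median of 411 bp, so by construction few would reach the span of a pair. Of the 4977 isolated peaks, 97 were at least 1014 bp wide (1.95%, 95% Wilson interval 1.6% to 2.37%).

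As a class, twins were about as strong and as wide as isolated peaks. Their median score was 247 (quartiles 175 and 394, n = 945), and that of isolated peaks was 250 (quartiles 177 and 406, n = 4977). The 95% intervals of the medians, 237 to 263 and 245 to 257, overlapped. For the strongest peaks the intervals overlapped too. A score of 1000 or more was given to 31 twins (3.28%, 95% Wilson interval 2.32% to 4.62%) and to 196 isolated peaks (3.94%, interval 3.43% to 4.51%). Divided into 10 classes of score, the peaks held 11.9% to 17.1% twins in each class, with 15.2% in the weakest and 13.7% in the strongest. The median width was 402 bp for twins and 411 bp for isolated peaks, with quartiles of 335 and 512 bp against 342 and 548 bp.

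Width followed score a little less closely in twins. Over 945 twins score and width had a Spearman's rho of 0.46, and over 4977 isolated peaks of 0.54, both as descriptions of the list. Below a score of 200 the median widths were 368 and 373 bp, and from 200 to 300 they were 397 bp for 267 twins and 393 bp for 1319 isolated peaks. At scores from 300 to 500 they were 439 bp for 210 twins (95% interval 419 to 471 bp) and 485.5 bp for 1058 isolated peaks (interval 476 to 498 bp). In the other 4 classes of score the intervals overlapped, with 629.5 against 661 bp at scores from 500 to 1000, and 788 against 823.5 bp from 1000 upwards. A twin cannot extend past its partner's edge, so its width is limited in a way that of an isolated peak is not.

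Scores within a pair were often unequal. By definition the stronger partner is the one with the higher score. The stronger partner had a median score of 360 (quartiles 248 and 565) and the weaker a median of 187 (quartiles 146 and 246, n = 407 pairs). The median ratio of the higher to the lower score was 1.75 (quartiles 1.34 and 2.57, 95% interval of the median 1.66 to 1.85). The ratio exceeded 2 in 162 pairs (39.8%), 5 in 30 pairs and 10 in 6 pairs. In 63 pairs (15.5%) the scores were within 1.2-fold of each other. No pair had equal scores.

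Over all pairs the median ratio was close to that of neighbours farther apart. At short spacing its value was lower than at wide spacing, with overlapping intervals. Neighbouring peaks 1 to 10 kb apart had a median score ratio of 1.74 (95% interval 1.64 to 1.89, n = 286). Those 10 to 100 kb apart had 1.78 (interval 1.73 to 1.82, n = 1987), and those farther apart had 1.77 (interval 1.74 to 1.81, n = 3640). Over all 495 steps within the limit it was 1.75 (interval 1.66 to 1.85). Among pairs it was 1.54 at spacings up to 400 bp (interval 1.33 to 1.89, n = 43) and 2.04 over 800 bp (interval 1.67 to 2.54, n = 62). With a limit of 500 bp the median ratio was 1.57 (interval 1.48 to 1.69, n = 154). Spacing is tied to the widths of the partners by construction, and why the ratio was lower was not tested. Successive steps share a peak, so the steps are not independent.

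**Figure D2:**
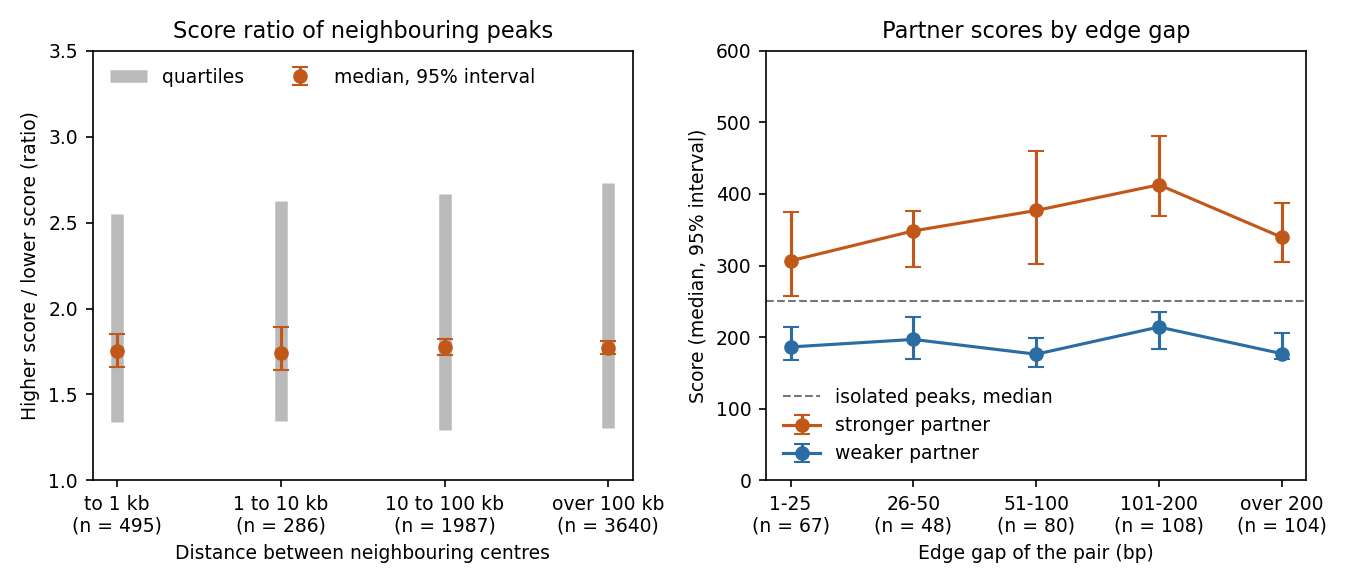
Left, the ratio of the higher to the lower score of neighbouring peaks (vertical axis) by the distance between their centres; points are medians with 95% intervals and grey bars span the quartiles. Right, the median score (vertical axis, with 95% intervals) of the stronger and the weaker partner of 407 pairs by edge gap in bp, and the median of isolated peaks as a dashed line. The median ratio was between 1.74 and 1.78 in each of the 4 distance classes shown.

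Over all pairs the scores of the partners were nearly unrelated. Over the 407 pairs Spearman's rho between the left and the right score was 0.036. It was 0.019, 0.018 and 0.016 for neighbours 1 to 10 kb, 10 to 100 kb and over 100 kb apart. Among the 112 pairs found when only scores at or above the list's median were kept, the rho was -0.23. All these values come from 1 library and are descriptions. Both partners scored at or above the list's median of 247 in 100 pairs, both scored below it in 100 pairs, and in the other 207 pairs (50.9%, 95% Wilson interval 46% to 55.7%) they fell on opposite sides. In widths too the partners were unrelated in rank, with a rho of -0.016.

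The stronger partner's median score stood at percentile 69.9 of isolated peaks and was 1.44 times their median. The weaker partner's stood at percentile 30.1, at 0.747 times their median. Ordering any values by size sets them apart in this way. The higher of 2 independent draws from a distribution has its median at percentile 70.7, and the lower at percentile 29.3. Over all pairs both partners stood within 1 percentile point of these marks. Percentiles were not taken at shorter spacing. With a limit of 500 bp the ratios to the median score of isolated peaks were lower for both partners. They were 1.13 for the stronger (interval 0.998 to 1.23) and 0.675 for the weaker. That limit keeps narrower peaks by construction, while the isolated peaks were of any width.

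**Figure D3:**
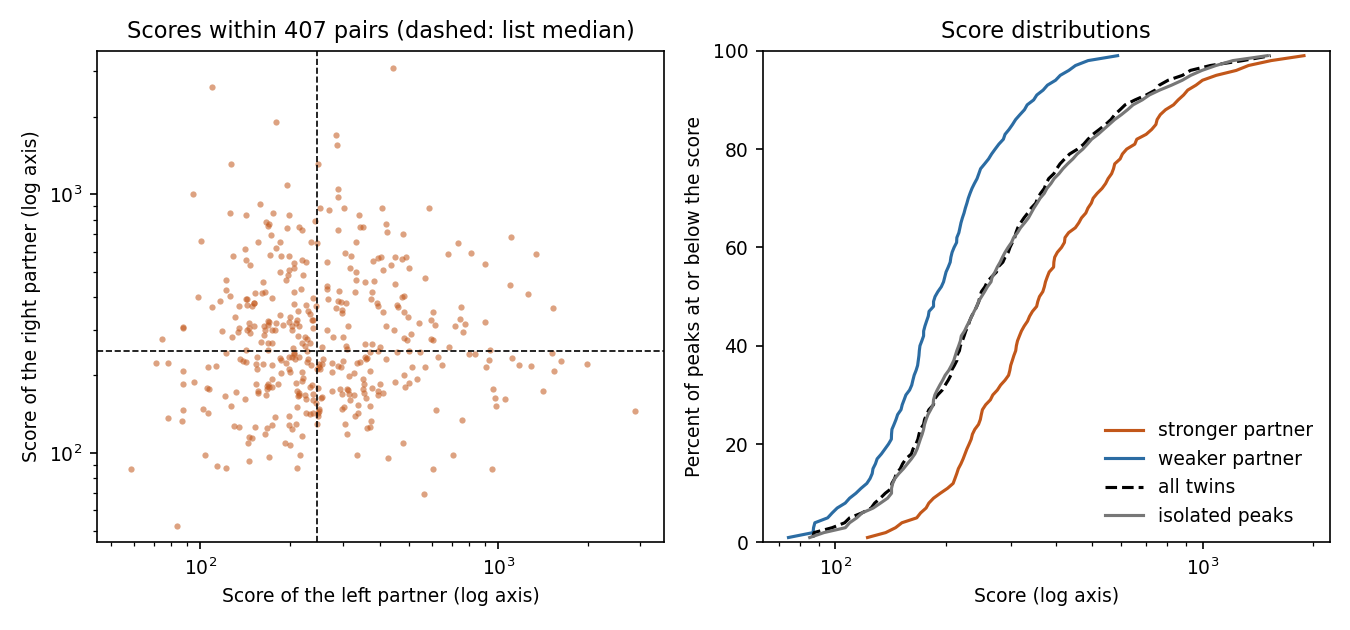
Left, the score of the right partner (vertical axis) against that of the left partner (horizontal axis) in 407 pairs, both on log axes, with the list's median of 247 as dashed lines. Right, the percent of peaks at or below each score (log axis) for stronger partners, weaker partners, all twins and isolated peaks. The 4 quadrants on the left are about evenly filled, and the curves of all twins and of isolated peaks nearly coincide.

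The stronger partner lay on either side. It lay on the left, at the lower coordinate, in 189 pairs (46.4%, 95% Wilson interval 41.6% to 51.3%) and on the right in 218. The median score was 239 for left partners (95% interval 224 to 252) and 257 for right partners (interval 236 to 282). Left and right refer to the reference strand and not to the direction of a gene. With a limit of 500 bp the stronger partner lay on the left in 40.9% of 154 pairs (interval 33.5% to 48.8%).

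The stronger partner was also mostly the wider. It was wider in 269 of 407 pairs (66.1%, 95% Wilson interval 61.4% to 70.5%), the weaker was wider in 137, and 1 pair had equal widths. Median widths were 468 bp for the stronger (quartiles 354.5 and 623 bp) and 382 bp for the weaker (quartiles 320 and 432 bp). The median width ratio of stronger to weaker was 1.21 (95% interval 1.14 to 1.25). Among neighbours 1 to 10 kb apart the stronger peak was the wider in 68.2% of 286 steps, with a median width ratio of 1.26. At 10 to 100 kb it was the wider in 63.8% of 1987 steps, with a ratio of 1.19. Over 100 kb it was the wider in 68.4% of 3640 steps, with a ratio of 1.25. Set against isolated peaks, the stronger partner was 1.14 times and the weaker 0.929 times as wide at the median. With a limit of 500 bp in place of 1000 bp the first of these ratios was 0.892, and the stronger was the wider in 53.9% of 154 pairs. Closely spaced peaks that do not overlap cannot both be wide, so widths depend on the limit by construction.

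Pairs with wider spacing had stronger partners that were higher and wider, while the weaker partners differed less. The stronger partner's median score was 249 in the 43 pairs spaced at most 400 bp (95% interval 223 to 294) and 526 in the 62 pairs spaced over 800 bp (interval 394 to 649). Its median width was 315 bp in the former and 629 bp in the latter. The weaker partner's median score was 164 (interval 142 to 178) and 209 (interval 174 to 252), with overlapping intervals. Its median width was 338 bp in the former pairs (interval 294 to 353 bp) and 391 bp in the latter (interval 361 to 403 bp). These width intervals did not overlap. Spacing is the sum of the edge gap and the average width of the partners, so it is tied to width by construction. Score and width had a Spearman's rho of 0.53 in stronger partners and 0.23 in weaker ones. Whether width accounts for the difference in scores was not tested. Spearman's rho of spacing was 0.41 with the stronger score and 0.56 with the stronger width. It was 0.24 with the weaker score and 0.24 with the weaker width.

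The edge gap was only weakly related to the scores. The limit on spacing also ties the gap to the widths, since wide peaks leave less room for a gap, and Spearman's rho of the gap with the summed width was -0.11. Spearman's rho of the gap was 0.055 with the stronger score, 0.023 with the weaker score and 0.039 with their ratio. In the 67 pairs with a gap of at most 25 bp the median scores were 307 (95% interval 257 to 375) and 186 (interval 168 to 214). In the 104 pairs with a gap over 200 bp they were 340 (interval 305 to 387) and 177 (interval 169 to 206). The median ratio was 1.69 in the former and 1.79 in the latter. The highest stronger score, 413 (interval 370 to 481), was in the 108 pairs with gaps of over 100 and up to 200 bp.

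The pairs with the highest summed scores each held a strong peak beside a weaker neighbour. The scores are skewed, with a median of 250 and a highest value of 3100 in isolated peaks. Where partners' scores are nearly unrelated, choosing by the sum favours a very high score beside an ordinary score. The inequality in these pairs thus follows at least in part from how they were chosen, and how far was not tested. In the top pair, on chromosome 6, the peak from 86475685 to 86476251 scored 444 and that from 86476371 to 86477348 scored 3100. The list's scores end at that value, which 8 peaks share, so it may be a ceiling. On chromosome 11, a peak from 23206112 to 23206589 scored 2883 and its neighbour from 23206939 to 23207250 scored 145. On chromosome 12, a peak from 16901186 to 16901575 scored 109 and its neighbour from 16901593 to 16902270 scored 2606. The score ratios of the latter pairs were 19.9 and 23.8, and 23.8 was the largest listed. For the top pair it was 6.97, a lower bound if 3100 is a ceiling.

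The following 5 pairs also joined a strong and a weaker peak. On chromosome 13 the peaks from 15554803 to 15555557 and from 15555624 to 15556111 scored 1987 and 222, and the nearest other peak was 1300 kb away. On chromosome 5 the peaks from 66088265 to 66088685 and from 66088806 to 66089737 scored 180 and 1902. On chromosome 14 the peaks from 121309933 to 121310212 and from 121310280 to 121310989 scored 286 and 1700. In the 6 pairs with the highest sums the stronger partner was the wider, by 1.53-fold to 2.54-fold. The same held on chromosome 15, where the peaks from 36722198 to 36723307 and from 36723377 to 36723894 scored 1339 and 586, and on chromosome 4, where those from 154865211 to 154866097 and from 154866146 to 154866487 scored 1524 and 362.

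Besides the pairs on chromosomes 11 and 12, the most unequal were a pair on chromosome 11 and a pair on chromosome 19. The former, from 93857161 to 93857693 and from 93857756 to 93858156, scored 956 and 87. The latter, from 41337922 to 41338323 and from 41338337 to 41338829, scored 94.7 and 1008. Their ratios were 11.0 and 10.6.

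Both partners scored above 500 in 8 of 407 pairs, and above 1000 in none, although the stronger partner did so in 25. Scores above 500 were given to 163 of all 945 twins (17.2%) and scores above 1000 to 31 (3.28%). Whether 8 pairs are few or many for such shares was not tested. The highest score of any weaker partner was 683. The most equal of the 8 lay on chromosome 12, from 3806541 to 3807116 and from 3807211 to 3808083, with scores of 503 and 520. On chromosome 11, peaks from 108781472 to 108782094 and from 108782289 to 108783079 scored 730 and 650. Also on chromosome 11, peaks from 66339199 to 66339833 and from 66339973 to 66340404 scored 812 and 596. A pair on chromosome 18 scored 680 and 588. It was the most compact of these 4, with centres 413.5 bp apart and widths of 340 and 301 bp.

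**Figure D4:**
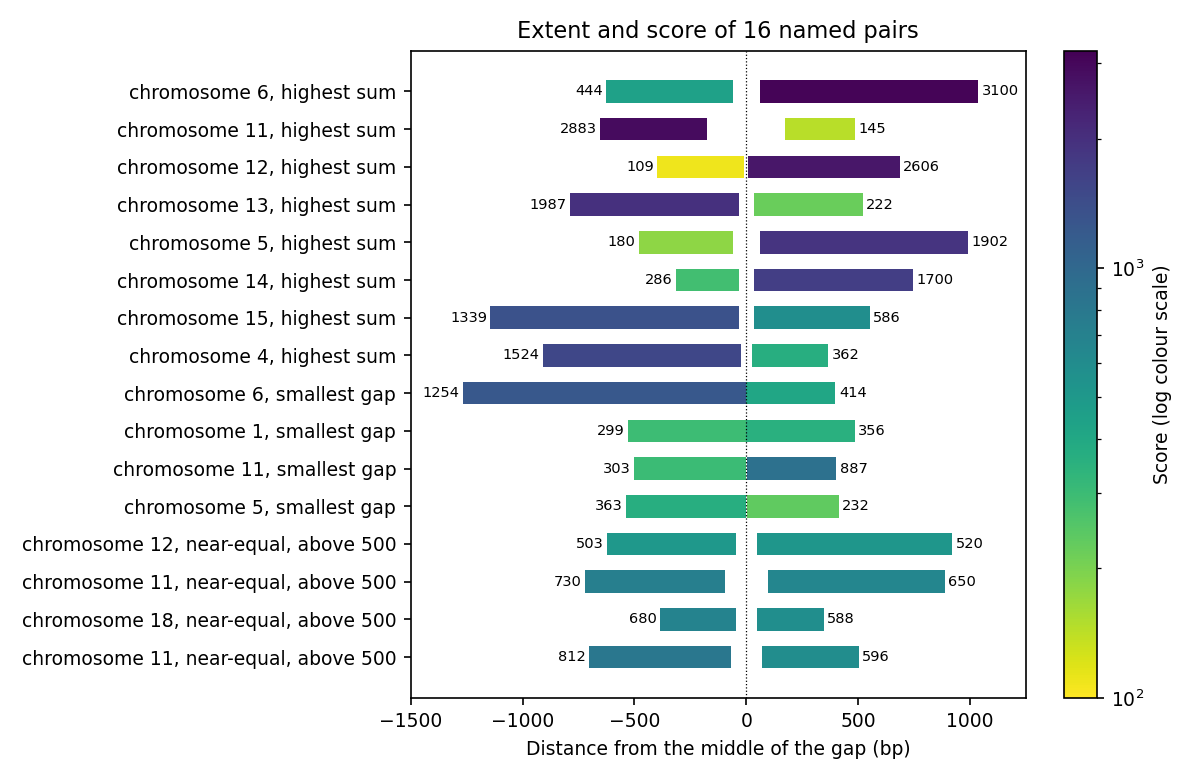
Extent of each partner in bp from the middle of the gap (horizontal axis) in 16 pairs (rows): the 8 with the highest summed score, the 4 with the smallest gap and the 4 most equal of those with both scores above 500. Colour on a log scale and the printed numbers give the score; in the 8 pairs at the top the partner with the higher score is also the longer bar.

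Groups of more than 2 peaks showed no fixed place for the strongest. In the 41 groups of 3, the strongest peak was the left in 15, the middle in 11 and the right in 15. The weakest was the left in 13, the middle in 14 and the right in 14. Median scores were 262 (95% interval 219 to 350), 267 (interval 218 to 340) and 260 (interval 185 to 341) from left to right. These groups spanned a median of 1673 bp, from 1188 to 2533 bp.

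The 2 groups of 4 peaks spanned 2739 and 2730 bp. On chromosome 17, from 4994081 to 4996819, the peaks scored 231, 163, 156 and 214 in order of position, with gaps of 178 to 530 bp. On chromosome 3, from 148650527 to 148653256, they scored 174, 246, 621 and 275, with gaps of 101 to 593 bp. The former held 4 peaks below the list's median, and in the latter the strongest was the third.

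Twin groups lay somewhat farther from the next peak than single peaks did, with a like number of loci around them. With each group counted as 1 locus, the next peak was a median of 94.1 kb away from a twin group (95% interval 83.4 to 108 kb, n = 450). From the 5482 peaks that were in no group it was 76.9 kb away (interval 74.3 to 79.6 kb). Another peak lay within 10 kb of 36 twin groups (8.0%, 95% Wilson interval 5.83% to 10.9%) and of 505 single peaks (9.21%, interval 8.47% to 10.0%). The median number of other loci within 500 kb on either side was 4 in each case, with quartiles of 2 and 7.

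Twins occurred on every autosome. Twin groups made up 7.59% of all 5932 loci. The share was lowest on chromosome 16, with 6 groups among 204 loci (2.94%, 95% Wilson interval 1.35% to 6.27%). It was highest on chromosome 18, with 21 of 187 loci (11.2%, interval 7.46% to 16.6%). Chromosomes 15 and 17 followed with 10.8% each (26 of 240 and 29 of 269 loci). By number, chromosome 5 carried the most groups, 38, followed by chromosome 11 with 37 and chromosome 2 with 36. The interval of chromosome 16 alone lay wholly below the autosomal share, and that of chromosome 17 alone lay wholly above it. Chromosomes were not tested against each other.

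**Figure D5:**
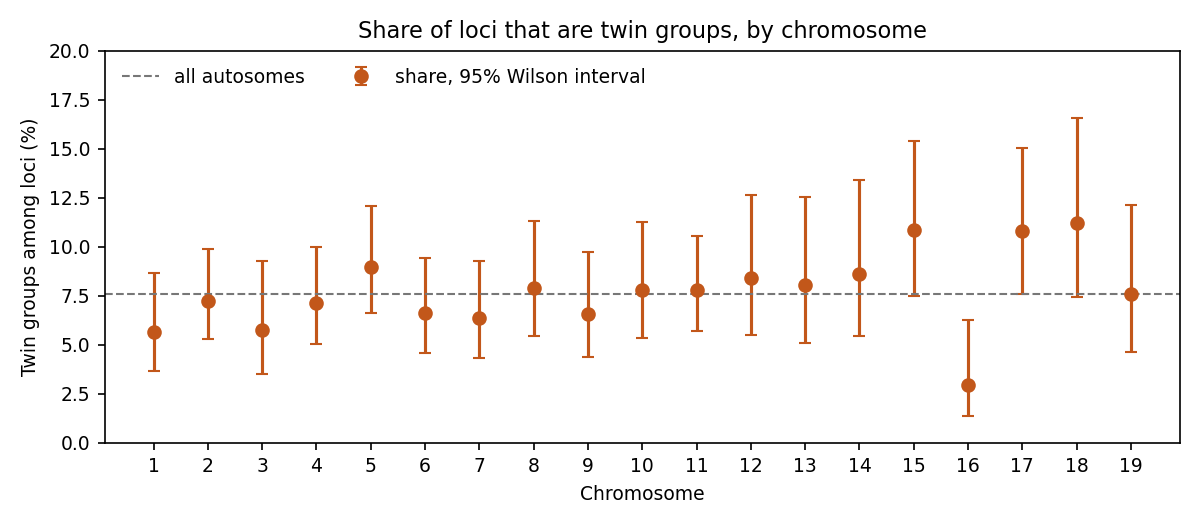
Percent of loci that are groups of twins (vertical axis, points with 95% Wilson intervals for counting error only) on each autosome (horizontal axis), with the share over all autosomes, 7.59%, as a dashed line. Chromosome 16 is lowest at 2.94% and chromosome 18 highest at 11.2%.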

How the data were processed

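ChIP-seq peaks were listed for 1 of the 2 libraries, the one with doxycycline. The deposited list has 5 columns and no header. The deposited score is 1 value per peak from the authors' caller, on a scale that is not stated. Peak names in the file carry the prefix of the caller MACS. The submitters' processing notes list Bowtie 1.0, HOMER and mm9, with no role for each. Caller settings and the use of the control in calling were not stated in the labels or the file.

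Centres were the means of start and end. Peaks linked by steps of at most 1000 bp formed a group, and groups of exactly 2 were the pairs. Starts are printed counted from 1. Medians have exact binomial order-statistic intervals and shares Wilson intervals, both at 95%. They cover counting error only, and peaks of a group are not independent. No test was run, since the members were chosen on this same list and there are no replicates. The members, lists and comparisons were chosen with earlier results of these data known. The pairs named were the 8 with the highest summed score, the 4 with the smallest gap, the 4 with the largest score ratio, the 4 most equal with both scores above 500, the groups of 4, and 3 on either side of the limit. Positions on chromosome 18 are not printed. Genes and motifs were not analysed, since the gene table at hand is of GRCm38 and positions were not converted. The code was tested on simulated pairs. Python 3.11.15, numpy 2.4.6, pandas 2.3.3, scipy 1.17.1 and matplotlib 3.10.9 were used.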

Additional observations from a re-analysis of the deposited data

How the results depend on the processing

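Of 59 alternatives, 39 left the value within its 95% interval or a count within 1.5 times, and 20 moved it. With a limit of 500 bp there were 326 twins, 5.01% of the list. The median spacing was then 433 bp and the gap 54.5 bp. The median score ratio was 1.57 and the width ratio 1.04. The stronger partner was the wider in 53.9% of pairs and the left in 40.9% (95% Wilson interval 33.5% to 48.8%). Against isolated peaks, the stronger partner had 1.13 times the score and 0.892 times the width, and the weaker 0.675 and 0.849 times. A shorter limit keeps narrower peaks by its construction; for the score ratios and the side the cause was not tested. A limit of 2000 bp gave 1100 twins, 16.9% of the list. Among scores at or above the list's median there were 248 twins, 7.62% of those peaks, with fewer peaks by construction. Their median spacing was 643 bp, the score ratio 1.54 and the width ratio 1.34. The weaker partner's width was 0.82 times that of isolated peaks under the same cut in score, a different comparison set from that of the main value. Spearman's rho of the partners' scores was -0.23 over those 112 pairs, against 0.036 over all pairs; the cause was not tested. That relation and the share of pairs on the same side of the median, with their alternatives, were added after seeing the data. The other alternatives (no peak at the highest score, steps inside larger groups, isolation beyond 50 kb, and edges at most 500 bp apart with 939 twins) moved no value. The alternatives for gene starts and motifs were not run. No paired analysis was possible because there was 1 library for each condition. With the depth unknown, weaker sites that the caller passed over are out of reach.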

Other observations

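Peaks outside the rule also came in close neighbours. On chromosome 9 below 3.1 Mb, 15 of the 24 peaks had another centre within 1 kb, with a median score of 418. On the X chromosome 4 of 45 peaks did, with a median score of 142.

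Some scores matched, within 0.006, the Poisson tail (as minus 10 times its log10) for a background of a whole number of reads, from 1 to 8. This held for 203 of 945 twins (21.5%, 95% Wilson interval 18.98% to 24.2%) and for 1194 of 4977 isolated peaks (24.0%, interval 22.8% to 25.2%). In 20 pairs both partners had a single such background. It was the same for both partners in 6 of these pairs, differed by 1 read in 3 and by 2 reads in 8, and differed by more in the other 3. How often peaks that are not partners would match in this way was not tested. The solved backgrounds were not compared with reads of the control library.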
